A study of Mus musculus with 3 samples.

Results

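Sox10, Erbb3, Ngfr, Ednrb, Cdh19 and S100a1, 6 genes linked to the neural crest and to Schwann cells, were followed by their symbols through 36530 counted features and 12670 single cells of 3 mouse melanomas. Their messenger RNA was read as unique molecular identifiers (UMIs, 1 per captured RNA molecule) in each of the 25 cell clusters that the authors named, above all in the clusters Tumor1 and Tumor2. Among clusters of at least 20 cells, Sox10, Cdh19 and Erbb3 were highest in Tumor1 in all 3 tumors. Ngfr, Ednrb and S100a1 were not, and most of their UMIs lay in stroma, macrophages and other cells. Most UMIs of Cdh19 in all tumors, and of Erbb3 in the untreated and regressed tumor, also lay outside the tumor clusters. The cluster of highest level sorts the genes by place only and does not decide which of them the group name describes. The plainest difference within the tumor clusters was in Cdh19, which stood 3.03-fold higher in the Tumor1 cells of the regressed tumor than in those of the untreated tumor and 4.29-fold lower in those of the progressed tumor than in those of the regressed one.

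Neural crest cells leave the dorsal neural tube of the embryo and give rise to melanocytes, to Schwann cells of the peripheral nerves and to parts of the connective tissue. Sox10 is the transcription factor that both melanocytes and Schwann cells need, and Schwann cell precursors along nerves can themselves form melanocytes. Cells of melanomas that keep Sox10 and carry glial genes in place of pigment genes have been described as neural crest-like, and Ngfr is often used to mark them.

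All 3 tumors grew in mice on a C57BL/6 background that carried Tyr.CreER together with Rosa26 LSL.tdTomato and Braf LSL.V600E. The Tyr promoter, active in the melanocyte lineage, drove a Cre that 4-hydroxytamoxifen painted on the skin switched on, so that the cells in which it acted gained mutant Braf and made the red fluorescent protein tdTomato. The untreated tumor received no inhibitor, the regressed tumor had shrunk under the Braf inhibitor vemurafenib, and the progressed tumor had grown again under it. Each group was therefore 1 tumor and 1 library, with 4095, 3726 and 4849 cells in the untreated, regressed and progressed tumor, and no difference between them has a replicate check: tumor, treatment and library cannot be told apart. Intervals in parentheses are 95% intervals (exact Poisson for a level, exact binomial for a share or a ratio), and they cover counting error only.

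A level is given as CPM, the UMIs of a gene in a group of cells per 1e+06 UMIs of those cells. Totals were 22202192, 12413268 and 26948940 UMIs, with medians of 4496, 2658 and 4566 UMIs per cell in the untreated, regressed and progressed tumor, so the regressed library was the shallowest. It also stood apart in 2 other ways: Xist, which coats an inactive X chromosome, was at 0.403 CPM in it against 1494 and 1735 CPM in the untreated and progressed libraries, and its neutrophils and NK_T cells, which should lack haemoglobin RNA, held 1929 CPM of it against 41.4 and 0 CPM. With Xist this low in the regressed library alone, its animal may have been of another sex than the others. The labels do not give sex, and such a difference cannot be told apart from treatment. The neutrophil and NK_T clusters of each tumor (416, 396 and 21 cells) served as the measure of free RNA, since none of the 6 genes is a defining gene of those cells. The clusters had been made from these same counts, so a level in one cluster set against another describes the clusters and is no test.

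Tumor1 held 44 cells of the untreated tumor, 61 of the regressed and 156 of the progressed, and Tumor2 held 4, 349 and 4, so Tumor2 is described only in the regressed tumor. Both clusters carried the transgene, measured as the features tdTomato and tWPRE together: Tumor1 held 2692, 1509 and 4275 CPM of it and regressed Tumor2 1308 CPM, against 36.7 to 42.4 CPM in the stroma. The study recognised tumor cells by the transgene, so its level there is no independent check of the cluster names. S100b, a calcium-binding protein of glia, was at 820, 867 and 770 CPM in Tumor1, against 79.2, 81.4 and 98.4 CPM in the stroma. A list of 6 melanocyte markers summed to 4.53, 19.9 and 16.9 CPM in Tumor1 and to 2218 CPM in regressed Tumor2, where Dct, which alone gave 1495 CPM, was found in 9 of 349 cells. Fibroblast markers summed to 5000, 7024 and 5665 CPM in Tumor1, against 40021 to 46910 CPM in the stroma, and leukocyte markers to 326, 364 and 129 CPM, and the part of either in the values below was not tested except where cells with such markers were left out.

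Sox10 (chr15:79154913-79164490 in GRCm38) gave 1410 UMIs in all cells. In Tumor1 it was at 730 CPM (621–852) in the untreated tumor, 814 CPM (677–972) in the regressed and 672 CPM (618–731) in the progressed. These levels lay close together. Regressed Tumor1 exceeded untreated Tumor1 by 0.16 on the log2 scale (-0.19 to 0.51), and progressed Tumor1 differed from them by -0.28 (-0.56 to 0.02, regressed) and -0.12 (untreated). Sox10 was found in 39 of 44, 44 of 61 and 139 of 156 Tumor1 cells (88.6%, 72.1% and 89.1%). With each cell thinned to 1000 UMIs and shallower cells left out, the shares were 56.1%, 51.1% and 47.0% of 41, 45 and 151 cells, and their intervals overlapped. The median Tumor1 cell held 3772, 1712 and 4721 UMIs, and in the neutrophils and NK_T cells, with medians of 3331.5, 1635 and 3732 UMIs, 0.240%, 4.55% and 0% of cells held a Sox10 UMI. The 21 progressed cells of this kind are few, and no UMI in them allows up to 35.3 CPM.

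Of all Sox10 UMIs, the Tumor1 and Tumor2 cells held 85.2% (184 of 216) in the untreated tumor, 59.4% (318 of 535) in the regressed and 86.2% (568 of 659) in the progressed, while those clusters held 1.19%, 4.80% and 3.12% of all UMIs. Sox10 was thus the most concentrated there of the 6 genes in all 3 tumors. Its level in Tumor1 was 489-, 55.1- and 382-fold above that in the stroma, which stood at 1.49, 14.8 and 1.76 CPM. The regressed stroma exceeded the untreated stroma by 3.31 on the log2 scale (2.62 to 4.07), and 16.1% of 16366 features were at least 2-fold higher in that comparison. The neutrophils and NK_T cells of the regressed tumor held 21.5 CPM of Sox10 (12.8–34.0), so the stromal level did not exceed that of cells that should lack the gene.

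The cluster named Dividing held more Sox10 than those cells in the regressed tumor. It held no Sox10 UMI in 43 untreated cells, which allows up to 7.13 CPM, and 112 CPM (70.9–168) in 75 regressed and 16.6 CPM in 147 progressed cells. The transgene moved with it there, at 9.66, 530 and 144 CPM, as did Cdh19 in the regressed tumor, at 5.79, 63.2 and 9.48 CPM. In regressed Dividing cells, 13 of the 17 with Sox10 also held a transgene UMI (76.5%), against 48.3% of those without.

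**Figure D1:**
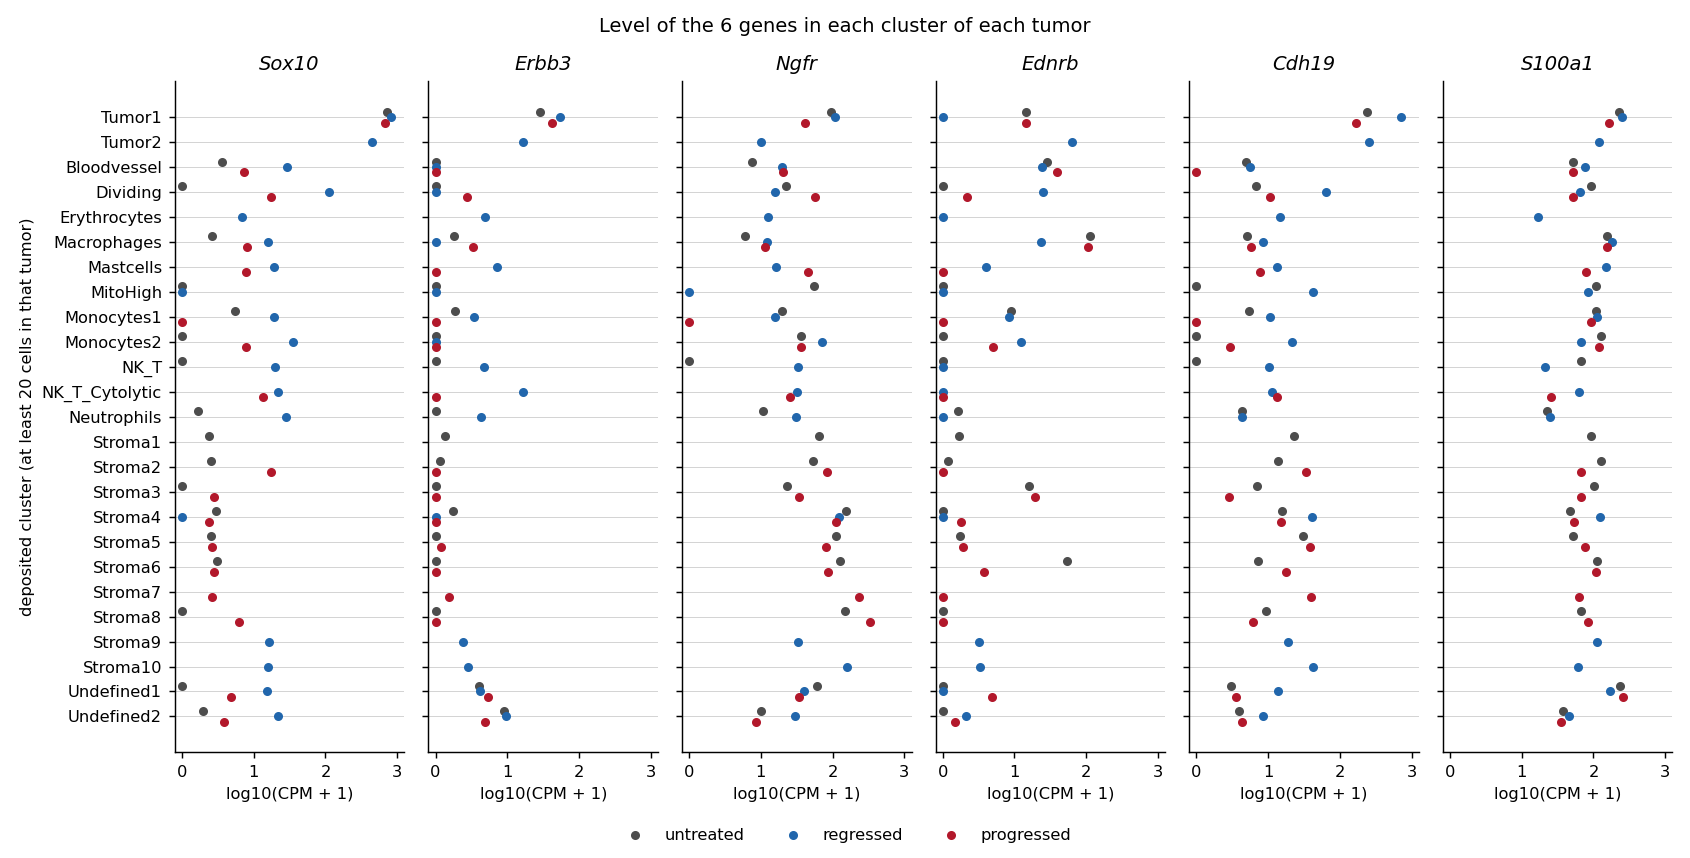
Level of each of the 6 genes, as log10(CPM + 1), in every cluster with at least 20 cells, with 1 point per tumor. Sox10, Cdh19 and Erbb3 peak in Tumor1 in all 3 tumors, Ednrb peaks in macrophages in the untreated and progressed tumors, and Ngfr and S100a1 are spread over many clusters.

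Erbb3 (chr10:128567523-128589635) encodes the receptor through which neuregulin keeps Schwann cell precursors alive, and which needs a partner such as Erbb2 to signal. It gave the fewest UMIs of the 6, 128 in all cells. Tumor1 held 6 UMIs in the untreated tumor, 8 in the regressed and 34 in the progressed, which are 27.2 (9.98–59.2), 53.0 (22.9–104) and 41.0 (28.4–57.4) CPM. These intervals overlap, and all 3 log2 ratios between tumors (0.96, -0.37 and 0.59) had intervals that hold 0. Tumor1 nevertheless had the highest level of all clusters of at least 20 cells in each tumor, although only in the progressed tumor did its interval clear that of the next cluster. The stroma gave 4, 11 and 2 Erbb3 UMIs, against which Tumor1 was 95.7-fold (22.7 to 461), 30.9-fold (10.8 to 84.4) and 361-fold (92.6 to 3102) higher in CPM. Of all Erbb3 UMIs, the tumor clusters held 26.1%, 31.25% and 59.6%. A UMI was found in 13.6%, 13.1% and 19.2% of Tumor1 cells, against 0%, 0.758% and 0% of neutrophils and NK_T cells, where no UMI in the untreated tumor allows up to 2.25 CPM.

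Cdh19 (chr1:110888002-110977601) encodes a cadherin, a protein of cell-to-cell adhesion, that is found on Schwann cell precursors. In Tumor1 it was at 236 CPM (176–309) in the untreated tumor, 715 CPM (587–863) in the regressed and 167 CPM (140–197) in the progressed. The regressed tumor was the high one, and its interval did not overlap the others. Cdh19 was 1.60 higher on the log2 scale (1.11 to 2.11) in regressed than in untreated Tumor1 and 2.10 lower (-2.48 to -1.72) in progressed than in regressed, whereas progressed against untreated gave -0.50 (-0.97 to -0.01), which became 0.12 in thinned cells. The count rested on many cells, with UMIs in 31 of 44, 48 of 61 and 79 of 156, and no single cell gave more than 7.69% of them. Thinned to 1000 UMIs, 17.1%, 55.6% and 18.5% of Tumor1 cells held Cdh19, against 0.245%, 0.645% and 0% of the neutrophils and NK_T cells. Regressed neutrophils and NK_T cells held 7.18 CPM of Cdh19, and the untreated ones 3.04 CPM. The regressed library was the shallowest and carried the most haemoglobin RNA, and the part of either in the Cdh19 difference was not tested.

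Among the 61 regressed Tumor1 cells, the 17 without a Sox10 UMI held Cdh19 at 1366 CPM (893–2002) and the 44 with one at 621 CPM (494–771). The cells without Sox10 were shallow, with a median of 712 UMIs against 1924, and only 5 of them held a transgene UMI, against 35 of the 44. In the untreated and progressed tumors 38 of 39 and 136 of 139 Tumor1 cells with Sox10 held the transgene, as did 5 of 5 and 16 of 17 of those without. Restricted to cells with a transgene UMI, the log2 ratio of Cdh19 in regressed to untreated Tumor1 was 1.36, the lowest of the settings tried, and in thinned cells it was 2.08, the highest.

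Outside the tumor clusters Cdh19 was low but present, in the stroma at 16.2, 35.5 and 24.5 CPM. The regressed stroma lay above the untreated by 1.13 on the log2 scale (0.86 to 1.40), in the same direction as Tumor1. In the stroma of the regressed tumor, Stroma10, with 1537 of its 1918 stromal cells, had 41.2 CPM (35.7–47.3). In the other tumors Stroma5 stood at 29.6 and 37.0 CPM. Tumor1 was 14.6-, 20.1- and 6.80-fold above the stroma, and the tumor clusters held 17.0%, 42.6% and 23.0% of all Cdh19 UMIs.

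**Figure D2:**
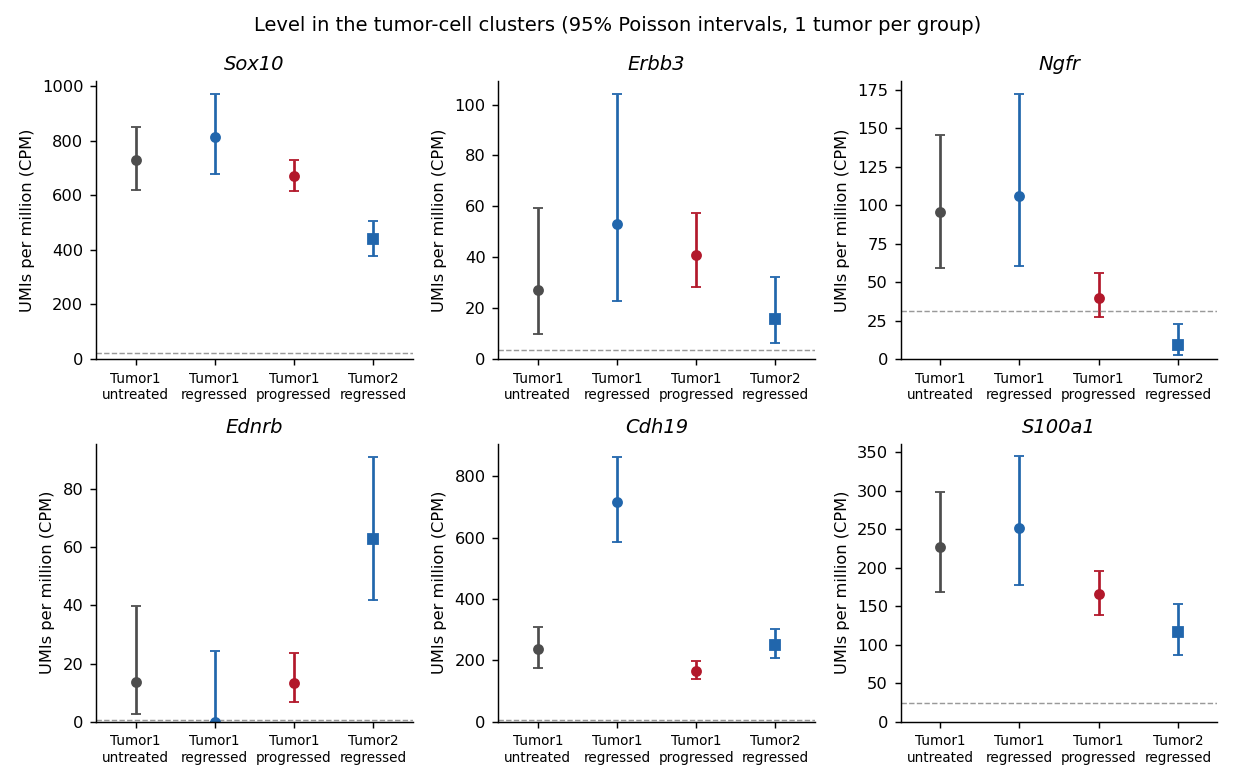
Level of each gene in CPM with its 95% Poisson interval in Tumor1 of the untreated, regressed and progressed tumor and in Tumor2 of the regressed tumor; the dashed line is the higher of the untreated and regressed levels in neutrophils and NK_T cells. Cdh19 stands at 715 CPM in regressed Tumor1 against 236 and 167 CPM in the other tumors, while Sox10 lies between 672 and 814 CPM in all 3.

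Ngfr (chr11:95568818-95587698) encodes the p75 neurotrophin receptor. It had 4375 UMIs in all, of which the tumor clusters held 1.71%, 2.02% and 1.58%. In Tumor1 it was at 95.2 CPM (58.9–146), 106 CPM (60.5–172) and 39.8 CPM (27.4–56.0), again with the untreated tumor first and the progressed last. The progressed tumor was the low one, by 1.26 on the log2 scale (-2.09 to -0.39) against the untreated and by 1.41 (-2.31 to -0.45) against the regressed tumor. These are 21, 16 and 33 UMIs in 10, 10 and 20 cells, and without cells that held leukocyte or fibroblast markers the ratios turned, to 0.56 and 0.0059.

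The stroma was the main place of Ngfr, at 79.8 CPM (75.2–84.7), 128 CPM (120–137) and 104 CPM (99.4–109), so that Tumor1 did not exceed it beyond counting error in any tumor: the log2 ratio of Tumor1 to stroma was 0.25 and -0.28, with intervals that hold 0, in the untreated and regressed tumor, and Tumor1 was 2.61-fold lower in the progressed tumor. Stroma8 of the progressed tumor had the highest level, 331 CPM (255–424), followed by Stroma7 at 228 CPM (207–251). Stroma4 led in the untreated tumor at 152 CPM (137–168), and Stroma10 in the regressed at 160 CPM (149–171), without clearing the next cluster in either. From the untreated to the progressed tumor, Ngfr differed in opposite directions in Stroma4 (-0.47 on the log2 scale) and Stroma8 (1.16), the latter counted in 23 and 21 cells.

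Ednrb (chr14:103814615-103844508) encodes an endothelin receptor that melanocyte precursors need on their way to the skin. Tumor1 barely held it: 3 UMIs in 2 cells of the untreated tumor and 11 UMIs in 6 cells of the progressed were 13.6 and 13.3 CPM, and none in the regressed tumor allows up to 24.4 CPM. Regressed Tumor2 held 28 UMIs in 22 of 349 cells, or 62.9 CPM (41.8–91.0), and was the highest cluster of that tumor, without clearing the next one. In the regressed neutrophils and NK_T cells there was no Ednrb UMI, which allows up to 4.41 CPM. Regressed Tumor1 held none, so Tumor2 was set against a floor of 3 UMIs over that group and stood 3.17-fold above it. The counting interval of the log2 ratio of Tumor2 to Tumor1 began lower, at 1.27. The ratio to the floor, 1.66 on the log2 scale, was 0.16 in thinned cells and 0.84 without the deepest 5% of cells. Of the 28 UMIs, 7 lay in 2 of the 7 Tumor2 cells with at least 10 UMIs of the pigment genes Dct, Pmel and Tyrp1 and 21 in 20 of the other 342, which held 50.4 CPM (31.2–77.1).

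Macrophages were the cells with the most Ednrb in the untreated and progressed tumors, at 112 CPM (94.3–133) and 105 CPM (88.0–125), in 54 of 312 and 50 of 339 cells. In the regressed tumor they held 22.3 CPM (8.17–48.5), 6 UMIs in 3 of 143 cells. The regressed macrophages were thus lower than the untreated by 2.34 on the log2 scale (-3.81 to -1.18), with 12.3% of 9766 features at least 2-fold lower there, and the progressed higher than the regressed by 2.24 (1.08 to 3.71), with 10.1% of 9671 features at least 2-fold higher. The median macrophage held 3429, 1388 and 3450 UMIs, so the regressed ones were also the shallowest, and the part of depth in this difference was not tested. Blood vessel cells had 27.0, 23.3 and 38.2 CPM, with overlapping intervals. In Stroma6, 25 UMIs in 5 of 83 untreated cells gave 52.7 CPM, against 2.81 CPM in 1255 progressed cells.

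S100a1 (chr3:90511034-90514330) encodes a calcium-binding protein, known best from heart and skeletal muscle, and its locus overlaps that of S100a13 on the other strand. It gave the most UMIs of the 6, 5615 in all cells, of which 2.91%, 9.11% and 5.93% lay in the tumor clusters. Tumor1 held 227 CPM (168–299), 252 CPM (178–345) and 165 CPM (139–196), in the same order of tumors. Regressed Tumor1 differed from untreated by 0.15 on the log2 scale (-0.50 to 0.79), and progressed Tumor1 by -0.61 (-1.13 to -0.05) from regressed and by -0.45 (-0.93 to 0.04) from untreated. The regressed value rests on 1 cell, which held 20 of its 38 UMIs. Without the cell with the most UMIs in each group, regressed against untreated became -0.75 and progressed against regressed 0.16. The cluster Undefined1, at 233, 168 and 253 CPM, and the macrophages, at 153, 182 and 154 CPM, reached levels near those of Tumor1. A UMI was found in 61.4%, 19.7% and 35.3% of Tumor1 cells, against 7.21%, 4.55% and 14.3% of neutrophils and NK_T cells.

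**Figure D3:**
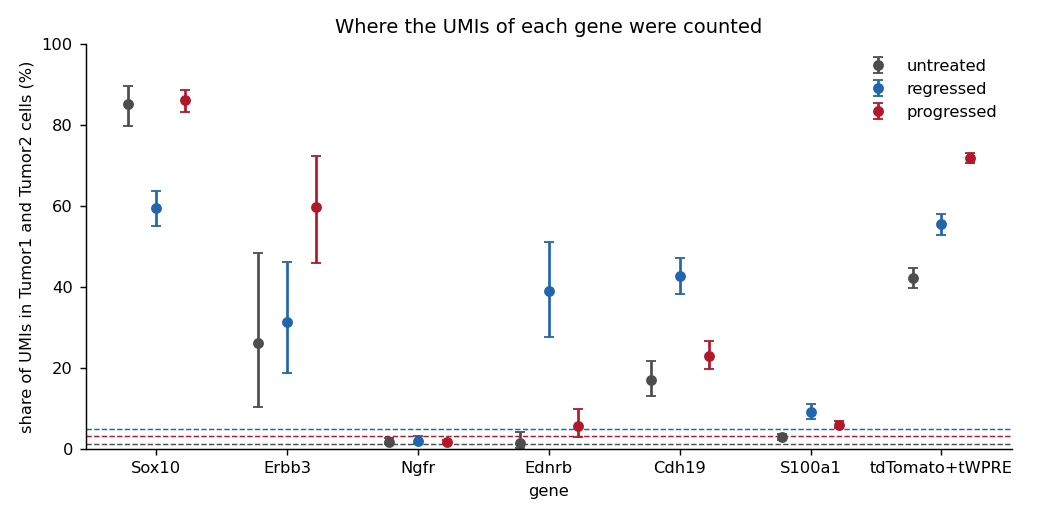
Percentage of each gene's UMIs that lay in Tumor1 and Tumor2 cells, per tumor, with exact 95% binomial intervals; dashed lines give the share of all UMIs that those clusters held (1.19%, 4.80% and 3.12%). Sox10 reaches 85.2%, 59.4% and 86.2%, and Ngfr lies between 1.58% and 2.02%.

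Set side by side, 1 of the 5 genes with at least 10 UMIs, Cdh19, was at least 2-fold higher in regressed than in untreated Tumor1 and none was at least 2-fold lower, with 15.7% of 6337 features higher and 13.8% lower to that extent, 29.5% in all. The median log2 ratio of the genes was 0.16 and that of all features -0.04. For progressed against regressed Tumor1, Cdh19 and Ngfr were at least 2-fold lower of 6 genes, against 15.6% of 9291 features (29.7% in either direction), with medians of -0.49 and 0. Ednrb, with no UMI in regressed Tumor1, had no defined ratio there, yet it was counted among the 6 genes and in their median. Ngfr was the 1 gene of 6 at least 2-fold lower for progressed against untreated, against 9.04% of 9455 features (21.3% in either direction), with medians of -0.29 and 0.03. These comparisons share tumors, so none is independent of the others.

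Summed over the 6 genes, the level was 1328 CPM in untreated Tumor1, 1940 CPM in regressed and 1099 CPM in progressed. Sox10 gave 54.9%, 42.0% and 61.2% of that sum and Cdh19 17.7%, 36.9% and 15.2%. The sum was 0.55 higher on the log2 scale (0.31 to 0.79) in regressed than in untreated Tumor1 and 0.82 lower (-1.01 to -0.63) in progressed than in regressed. In both tumor clusters together the first of these turned, to -0.11, since Tumor2 made up most of the regressed tumor cells. Gene by gene, only Cdh19 had an interval that excludes 0 for regressed against untreated Tumor1. The median log2 ratio of the genes with at least 10 UMIs was 0.16 there, so the higher sum was not shared by the genes as a group. The transgene went the other way from the sum in Tumor1, by -0.83 and 1.50.

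Regressed Tumor2 cells held less of 5 of the 6 genes than regressed Tumor1 cells. Sox10 was at 438 CPM (379–504), lower by 0.89 on the log2 scale (-1.23 to -0.56), and Cdh19 at 252 CPM (207–303), lower by 1.51 (-1.90 to -1.11). Erbb3 at 15.7 CPM, S100a1 at 117 CPM and Ngfr at 8.99 CPM were lower by 1.75, 1.11 and 3.56. S100a1 turned to 0.42 higher without the deepest 5% of cells, and the Ngfr level was under the 31.1 CPM of regressed neutrophils and NK_T cells. In all, 4 of the 6 genes were at least 2-fold lower and 1, Ednrb, at least 2-fold higher, against 12.6% and 18% of 8275 features, 30.7% in all, and the median of the genes was -1.31 against 0.12. The transgene differed by only -0.21 (-0.43 to 0.02). The median Tumor2 cell held 768 UMIs, and in cells thinned to 1000 UMIs, which kept 121 of 349, 38.0% held Sox10 and 26.4% Cdh19, against 51.1% and 55.6% of Tumor1 cells.

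**Figure D4:**
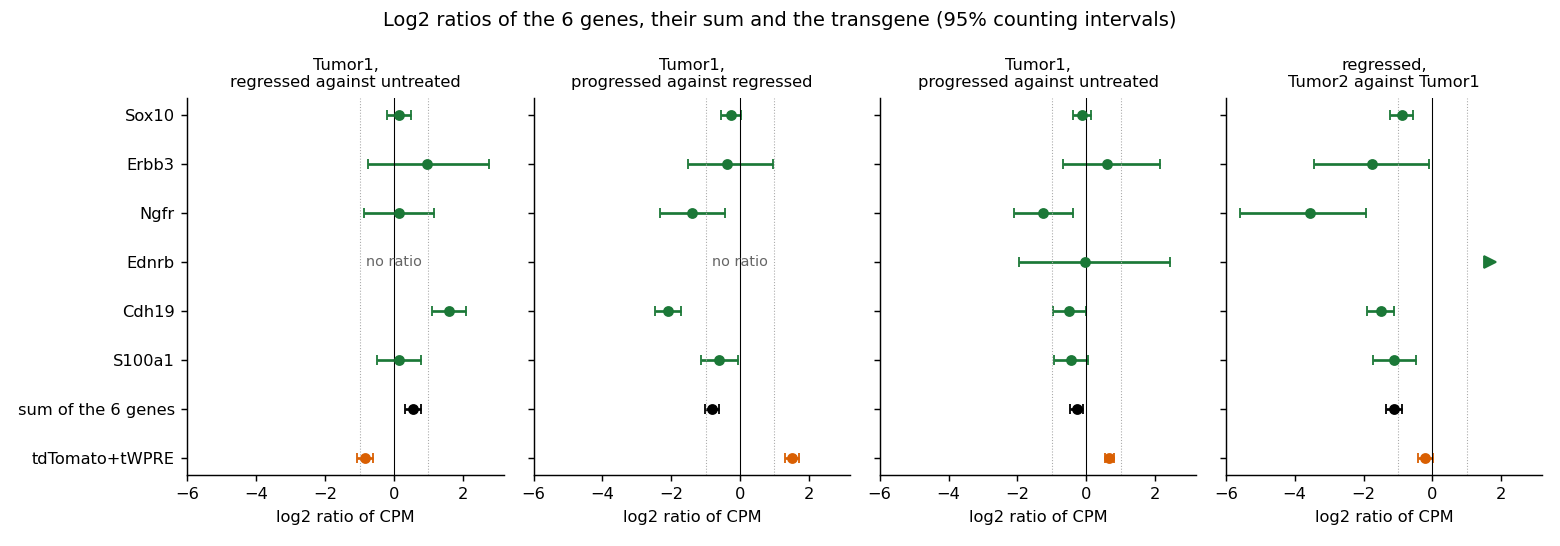
Log2 ratio of each gene between Tumor1 cells of 2 tumors, and between Tumor2 and Tumor1 of the regressed tumor, with 95% counting intervals. Dotted lines mark a 2-fold difference and a triangle a ratio against a floor of 3 UMIs. Cdh19 lies at 1.60, -2.10, -0.50 and -1.51, while the intervals of Sox10 hold 0 in every comparison between tumors.

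Single cells often held more than 1 of the genes, and the count depends on depth. Thinned to 1000 UMIs, at least 1 gene was found in 78.0%, 80.0% and 63.6% of Tumor1 cells and in 58.7% of regressed Tumor2 cells, against 16.6%, 23.3% and 18.3% of stromal cells. At least 2 genes were found in 31.7%, 40.0% and 19.2% of Tumor1 cells and 19.8% of Tumor2 cells, and in 0.731%, 2.37% and 1.50% of stromal cells. In unthinned cells at least 1 was found in 100%, 91.8% and 95.5% of Tumor1 cells. The 5 Tumor1 cells of the regressed tumor without any of the genes were counted among 61.

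**Figure D5:**
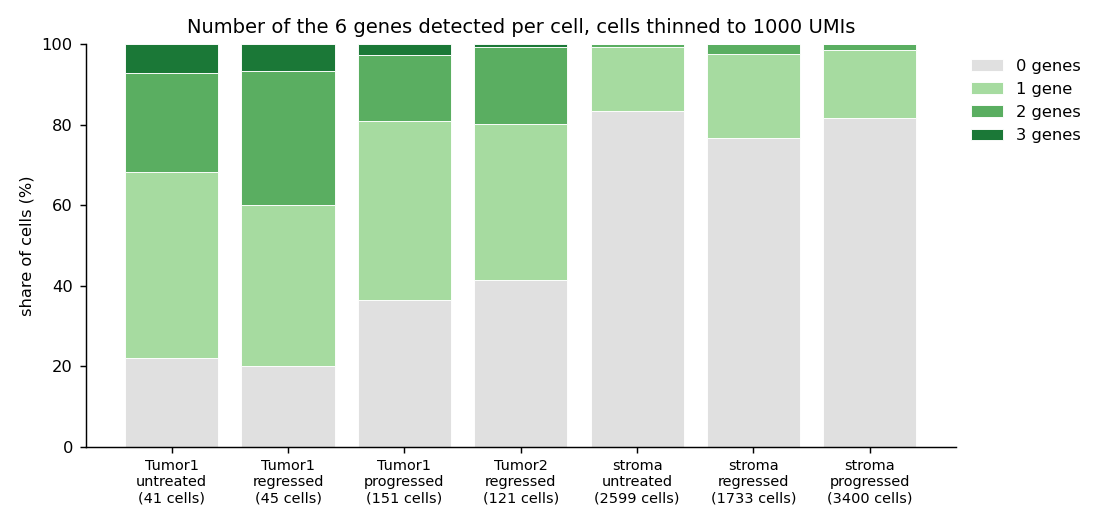
Percentage of cells with 0, 1, 2 or more of the 6 genes, in cells thinned to 1000 UMIs, for each tumor and cell group. Tumor1 cells with at least 2 genes make up 31.7%, 40.0% and 19.2% in the untreated, regressed and progressed tumor, against at most 2.37% of stromal cells.

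Over the 53 groups of at least 20 cells that a cluster and a tumor define, the features whose log2(CPM + 10) followed Sox10 most closely were Gpr37l1, an orphan receptor of glia, Nkain4 and Col20a1, a collagen, with Pearson correlations of 0.97, 0.96 and 0.95. Those of Cdh19 were Gjc3, a gap junction protein of glia, Cadm4 and Lgi4, a protein that Schwann cells secrete (0.88, 0.87 and 0.87), and those of Erbb3 were Inka2, Tmem117 and Aatk (0.92, 0.87 and 0.87). Ednrb followed other genes altogether, namely Lyve1 and Folr2, which mark resident macrophages, and the lysosomal protease Lgmn (0.72, 0.69 and 0.71). Ngfr came closest to Zfhx4, Gpc3 and Ddah2 (0.75, 0.73 and 0.73) and S100a1 to Tns3, Cryl1 and Cyfip1 (0.65, 0.61 and 0.60). The mean of the 6 genes was closest to Lgi4, Gjc3, Nkain4, Ajap1 and Megf10 (0.90, 0.89, 0.89, 0.89 and 0.88). Between the genes themselves the correlation was 0.83 for Sox10 and Erbb3 and 0.80 for Sox10 and Cdh19, but 0.05 for Sox10 and Ngfr, 0.24 for Sox10 and Ednrb, 0.28 for Sox10 and S100a1 and -0.29 for Ngfr and Ednrb. These groups share 3 libraries and their depths and are not independent points.

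The promoter sequence of Ngfr, whose pattern was not that of Sox10, is shown beside that of Col20a1, which followed Sox10, to compare them for the core letters that SOX proteins bind. The 250 bases before each start are from RefSeq in GRCm38.p6, 5′ to 3′ on the strand of the gene, at chr11:95587699-95587948 on the minus strand and chr2:180986285-180986534 on the plus strand, and capitals mark the motif ACAAAG, which reads CTTTGT on the other strand.
Ngfr: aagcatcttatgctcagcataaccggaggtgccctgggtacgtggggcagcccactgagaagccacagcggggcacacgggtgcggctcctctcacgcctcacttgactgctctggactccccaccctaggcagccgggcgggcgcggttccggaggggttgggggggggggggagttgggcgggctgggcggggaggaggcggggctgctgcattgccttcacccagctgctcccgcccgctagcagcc
Col20a1: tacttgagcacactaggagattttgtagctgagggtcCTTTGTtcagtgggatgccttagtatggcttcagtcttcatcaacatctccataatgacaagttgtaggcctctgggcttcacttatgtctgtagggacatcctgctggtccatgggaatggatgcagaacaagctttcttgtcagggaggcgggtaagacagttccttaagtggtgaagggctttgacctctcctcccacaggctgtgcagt
Of 32851 promoters of this length, 16.5% held the motif on either strand. Col20a1 held 1 match, and the entries of Ngfr, Ednrb, S100a1 and Gpr37l1 held none. The Ednrb window lies within the Ednrb locus and the S100a1 window within that of S100a13. A match describes the letters and is no binding site, and the absence of one says only that these letters are not in this window. Of the 6 genes, 3 had an entry in the table of promoters used here.

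Other genes of the Schwann lineage were counted in the same cells. Of 20 Schwann glia genes, 14 had at least 10 UMIs for regressed against untreated Tumor1, of which 4 were at least 2-fold higher and 1 at least 2-fold lower, with a median log2 ratio of 0.29, where 15.7% and 13.8% of all features were higher and lower to that extent. S100b differed by less than 2-fold between the tumors, at 0.08 on the log2 scale (-0.26 to 0.41) for regressed against untreated Tumor1. Pmp22, a myelin protein gene, was 0.56 higher on the log2 scale (0.28 to 0.84) in regressed than in untreated Tumor1. In regressed Tumor2, 8 of 15 of the genes were at least 2-fold lower than in Tumor1 and 2 higher (median -1.14), against 12.6% and 18% of all features: S100b by 1.55 (-1.91 to -1.19), Pmp22 by 1.47 (-1.74 to -1.19) and Gfra3, the receptor for artemin, by 5.65 (-8.75 to -3.68).

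Some Schwann lineage genes, named here for their values, had the shape of Cdh19, high in the regressed Tumor1 and lower in the progressed. Gap43, a growth-cone protein of nerves and of immature Schwann cells, was at 49.9, 159 and 10.9 CPM, and was 1.67 higher (0.59 to 2.85) and then 3.87 lower (-5.16 to -2.71). Dhh, the hedgehog ligand of Schwann cells, had another shape: it was at 27.2, 192 and 339 CPM and was 3.64 higher on the log2 scale (2.50 to 5.10) in the progressed than in the untreated Tumor1. For progressed against regressed, 1 of 16 Schwann glia genes was at least 2-fold higher and 4 lower (median -0.09), against 14% and 15.6% of all features. For progressed against untreated 3 of them were higher and 2 lower (median 0.23), against 12.3% and 9.04%.

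Among neural crest regulators, 4 of 10 were at least 2-fold higher in regressed than in untreated Tumor1 and none was at least 2-fold lower (median 0.90), against 15.7% and 13.8% of all features. In progressed against regressed Tumor1 none of 12 was higher and 4 were lower (median -0.66), against 14% and 15.6% of all features, and in progressed against untreated 3 of 13 were higher and 2 lower (median -0.03), against 12.3% and 9.04%. Sox2, a transcription factor of immature Schwann cells, was at 9.07, 205 and 65.2 CPM, from 2, 31 and 54 UMIs, which is 4.50 higher (2.53 to 7.61) and then 1.65 lower (-2.32 to -0.97). Foxd3, which acts in early neural crest cells, was at 81.6, 179 and 47.1 CPM, 1.13 higher (0.22 to 2.08) and then 1.92 lower (-2.67 to -1.16). Zeb2, a transcription factor that Schwann cells need to mature, was at 449, 847 and 247 CPM. Aqp1, a water channel, was at 911, 2244 and 2244 CPM and so was as high in the progressed as in the regressed tumor, and Id3 was 1.19 lower (-1.60 to -0.78) in progressed than in untreated Tumor1. In regressed Tumor2, 6 of 14 were at least 2-fold lower than in Tumor1 and 1 higher (median -0.77), against 12.6% and 18% of all features.

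Genes of the pathways of these receptors were also counted. Over the Tumor1 and Tumor2 cells of all tumors, Erbb2 gave 61 UMIs, Ece1 44 and Sorcs2 111. Of the genes listed for the ErbB pathway only Erbb2 and Egfr reached 10 UMIs in any comparison. Erbb2 was at 13.6, 26.5 and 31.4 CPM in Tumor1 and at 60.7 CPM in regressed Tumor2, 1.20 higher on the log2 scale there, with an interval that holds 0 (-0.32 to 3.17). Ece1, which makes active endothelin, was at 36.3, 59.6 and 24.1 CPM in Tumor1, and was 2.41 lower (-4.33 to -0.67) in regressed Tumor2, as the 1 of 2 endothelin pathway genes with at least 10 UMIs that was at least 2-fold lower there, against 12.6% of all features. Of 4 genes of the neurotrophin pathway with at least 10 UMIs, 1 was at least 2-fold higher and 2 lower in regressed than in untreated Tumor1, against 15.7% and 13.8% of all features. Sorcs2 was 1.51 lower (-3.09 to -0.19) in regressed than in untreated Tumor1, and Ntrk2, at 27.2, 66.2 and 60.4 CPM, had intervals that hold 0 in all comparisons. Of 2 other cadherins with at least 10 UMIs, 1 was at least 2-fold higher in regressed than in untreated Tumor1, where 15.7% of all features were, and its interval holds 0 (-0.10 to 4.51). Cdh2 was at 13.6, 53.0 and 9.66 CPM, from 3, 8 and 8 UMIs, and Cdh11 at 49.9, 33.1 and 25.4 CPM.

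The other genes of the S100 family were counted beside S100a1. Of 9 with at least 10 UMIs, 2 were at least 2-fold lower in regressed than in untreated Tumor1, against 13.8% of all features. Both are genes of neutrophils: S100a8, at 698 and 318 CPM, and S100a9. In progressed Tumor1, S100a8 was at 1.21 CPM. S100a13, whose locus overlaps S100a1, was at 444, 377 and 311 CPM, with a log2 ratio of -0.24 (-0.73 to 0.25) for regressed against untreated. Of 8 melanocyte genes with at least 10 UMIs in the regressed tumor, 6 were at least 2-fold higher in Tumor2 than in Tumor1 and none lower, with 18% of all features higher and 12.6% lower to that extent. Dct, an enzyme of melanin synthesis, was at 1495 against 6.62 CPM, or 7.82 on the log2 scale (5.34 to 13.12), but all 665 Dct UMIs of Tumor2 lay in 9 of its 349 cells.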

How the data were processed

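RNA of single cells from 3 tumors was profiled with Chromium Single Cell 3′ v2 libraries. The authors deposited 1 table of UMI counts per tumor, not normalized, from uniquely mapped reads overlapping exons in sense orientation, and a table of cells with the cluster labels used here. The submitters' processing notes name GSNAP, Seurat 2.2.0 and GRCm38; the annotation release is not given in the sources used here. Summed counts exceeded the deposited totals per cell by 4.42% to 6.09%. All cells held at least 300 UMIs, and libraries shared 0 cell IDs.

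Counts were summed per cluster and tumor. With 1 tumor per group no test across features was made, and a difference was called at 2-fold among features with at least 10 UMIs in both groups together. Intervals are exact, at 95%. No doublet caller was run, and the deepest 5% of cells were left out as an alternative. Thinning used 1000 UMIs per cell (seed 1). Correlations used features with at least 50 UMIs. Besides the 6 genes, the 3 genes of each list with the most UMIs in tumor cells, the 3 features most like each gene (5 for their mean) and the transgene were named; other list members with at least 10 UMIs could be. Some genes and an allele are not reported here. Genes and lists were chosen with earlier results of these data known. Software was Python 3.11.15, numpy 2.4.6, scipy 1.17.1, pandas 2.3.3, R 4.3.3 and, for scaling factors only, edgeR 4.0.16.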

Additional observations from a re-analysis of the deposited data

How the results depend on the processing

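No paired analysis was possible because each group held 1 tumor. The summed level of the 6 genes in regressed against untreated Tumor1, 0.55 on the log2 scale, was 0.12 in cells thinned to 1000 UMIs, 0.16 as the median of the genes, 0.91 without Sox10 and -0.11 over Tumor1 and Tumor2 together. For progressed against regressed, -0.82, it was -0.58 with TMM and -0.59 with RLE scaling, -0.52 thinned, -0.54 without cells holding leukocyte or fibroblast markers, -0.063 over both clusters and -1.40 without Sox10. As the median of the genes it was -0.49, with Ednrb counted although it had no defined ratio. Progressed against untreated gave -0.49 without Sox10, and Tumor2 against Tumor1 gave -0.86 in cells with a transgene UMI. TMM scaling shifted all log2 ratios by 0.24 for progressed against regressed, and by -0.08, 0.11 and 0.05 for the others. The share of the summed UMIs in tumor clusters was 7.83%, 21.9% and 15.3% in the untreated, regressed and progressed tumor; it was 9.30% untreated and 16.4% progressed when thinned, and 8.69%, 24.3% and 17.7% without dividing, mitochondria-rich and undefined clusters. The share of features past 2-fold for progressed against untreated was 13.99% with at least 30 UMIs, against 21.3%. Among values of single genes under other settings, 202 moved by less than their counting interval allows, 25 by more, and 11 were labelled as reversed. The last count does not hold every change of sign. It leaves out S100a1 in regressed against untreated Tumor1, which turned negative without the cell with the most UMIs. Ngfr became 0.0059 (progressed against regressed) and 0.56 (against untreated) without cells with other markers, and Cdh19 0.12 (progressed against untreated) when thinned. S100a1, progressed against regressed, became 0.31 as a mean over cells, 0.42 thinned, 0.73 without the deepest 5% of cells, 0.27 in transgene cells, 0.59 without cells with other markers and 0.16 without the cell with the most UMIs, a setting chosen after seeing the data. In Tumor2 against Tumor1, S100a1 became 0.42 without the deepest 5% of cells and 0.26 without cells with other markers. Apart from the single S100a1 cell and the settings' own construction, the cause was not tested. Leaving out cells with other markers kept 15, 24 and 54 Tumor1 cells. No value could be had for Ednrb (progressed against untreated) and Erbb3 (Tumor2 against Tumor1) in thinned cells, nor for Ednrb (Tumor2 against Tumor1) without cells with other markers or as a mean over cells. Depth limits Erbb3, Ednrb and Ngfr in Tumor1 most, with at most 34 UMIs per group.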
